A study of Homo sapiens with 6 samples.

Results

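The genes described here are the replication-dependent histone genes, which encode the linker histone H1 and the core histones H2A, H2B, H3 and H4. They were taken by name: protein-coding genes whose symbol starts with H2AC, H2BC, H3C or H4C and a digit, together with H1-1 to H1-5. The count table held 60 of the 69 genes with such symbols, out of 23227 genes in all, and the other 9 were not analysed here. The 60 genes comprised 4 of class H1, 16 of H2A, 17 of H2B, 11 of H3 and 12 of H4. By position, 47 lay in the HIST1 cluster on chromosome 6, 9 in HIST2 and 2 in HIST3 on chromosome 1, and 1 each on chromosomes 12 and 21. The study sequenced RNA from MV4-11, an established acute myeloid leukaemia line with a KMT2A-AFF1 fusion and a FLT3 internal tandem duplication. The groups were 3 libraries with a knockdown of ENO1, whose table columns carry the name of a single hairpin (ENO1_sh2), and 3 control libraries titled NC and described as untreated. All 6 libraries came from cells given as wild type in genotype. No time after knockdown is given, nor whether the controls carried a control hairpin, nor whether the 3 libraries in each group stand for 3 cultures. The p-values therefore speak only to the scatter among these 6 libraries, and part of that scatter may be technical.

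Cells need new histones when DNA is copied, and the replication-dependent genes supply most of them, with transcription concentrated in S phase. Their messenger RNAs are unusual in ending not in a poly(A) tail but just after a conserved stem-loop, which is bound by the stem-loop binding protein SLBP and cut with the help of the U7 small nuclear ribonucleoprotein. Some of these genes also give longer, polyadenylated transcripts that run past the stem-loop, a form known from differentiating and non-dividing cells. The TruSeq RNA kit named in the labels is commonly used with poly(A) selection, but the labels do not say whether it was used so here. Gene counts do not separate the forms, so a higher count cannot be split into more transcription, more polyadenylated form or slower decay. Likewise, in these bulk samples fewer cells of a type and less RNA per cell cannot be told apart.

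The stem-loop is the element that sets these transcripts apart, and it is shown here in the forms it takes among the 60 genes. A 16-base stem-loop pattern was found after the coding end in GENCODE release 29 transcripts of 27 of the 60 genes, between 22 and 67 bases past the stop codon. The other 33 included 28 whose longest transcript model ends at the stop codon, so that the element lies outside the model. Of 206605 transcripts of other genes, 19 (0.0092%) held the pattern. Capitals mark the stem and lower case the loop.
Form in H2AC6, H2AC25, H2BC18, H2BC21, H3C10 and 10 further genes of classes H2A, H2B and H3: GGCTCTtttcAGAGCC
Form in H2BC4, H2BC5, H2BC7 and H3C8: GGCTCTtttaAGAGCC
Form in H2AC11: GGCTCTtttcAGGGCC
Form in H4C5, H4C8, H4C11 and H4C16: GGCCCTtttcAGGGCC
Form in H4C9, H4C14 and H4C15: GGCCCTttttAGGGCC
All 7 genes of class H4 with a match had a stem beginning GGCCCT, and the 20 of the other classes had GGCTCT, so the H4 genes were set apart by their stem. The transcript models of 20 genes, among them H2AC6, H2BC18, H2BC21 and H4C8, ran at least 100 bases past the stem-loop.

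Library totals ran from 20044602 to 21670135 counts in the knockdown and from 24778469 to 26373960 in the controls. ENO1 averaged 102.1 ± 1.25 CPM (counts divided by library size in megacounts, with library sizes scaled by TMM, the trimmed mean of M-values) in the knockdown and 3262 ± 22.6 CPM in the controls (SD, n = 3 each). Myeloid markers were expressed, with a summed level of 2187 to 2210 CPM in the knockdown and 2136 to 2152 CPM in the controls. Of the 8 markers 5 were called higher and 3 lower, against 29.4% and 30.5% of all tested genes. Single markers moved far in opposite directions. ITGAM, an integrin of mature myeloid cells, averaged 41.9 ± 0.206 CPM in the knockdown and 11.9 ± 0.151 CPM in the controls, while LYZ, which encodes lysozyme, averaged 51.4 ± 1.014 CPM in the knockdown and 274.1 ± 3.43 CPM in the controls, and MPO, which encodes myeloperoxidase, 3.66 ± 0.278 CPM and 22.4 ± 1.19 CPM (SD, n = 3 each). The part of such changes in the histone values was not tested. T cell markers summed to at most 0.139 CPM in the knockdown and 0.0771 CPM in the controls. In the controls CD3E, MS4A1 and EPCAM were at 0. Knockdown replicate 3 differed from knockdown replicates 1 and 2 by a chi-square of 3.81 and 3.95 per degree of freedom, against 2.24 between those, and control replicate 2 differed from its group by 2.74 and 3.02, against 2.06.

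Taken over all 60 genes, histone transcripts were more abundant in the knockdown. They held 3461, 3380 and 3220 counts in the knockdown libraries, against 1555, 1569 and 1436 in the controls. Scaled for depth, this was 157.5 ± 3.81 CPM in the knockdown and 61.1 ± 2.87 CPM in the controls (SD, n = 3 each), a ratio of 2.58. The 3 knockdown libraries lay between 153.4 and 160.9 CPM, all above the controls at 58.9 to 64.3 CPM. The sum depends little on any test, since it takes in all 60 genes whether or not they passed a filter on low counts. Even so, these are small numbers for libraries of this size, and most single genes had few reads.

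A filter on low counts left 25 of the 60 genes for testing, and of these 22 rose and 0 fell (edgeR quasi-likelihood test, Benjamini-Hochberg adjusted p below 0.05 over 14635 genes). Over all genes tested, 29.4% were called higher and 30.5% lower. No tested histone gene was lower at an unadjusted p below 0.05 either. DESeq2 and limma-voom also called 0 of them lower, where these tools called 21.7% and 30.5% of all genes lower. The rise was at least 2-fold for 19 of the 25, where 6.51% of all tested genes were called higher at that size. The median log2 fold change was 1.49 over the 25 genes and 0.0043 over all 14635. A gene could pass the filter through the knockdown libraries alone, which favours a rise, and 16 of the 25 met its level in every control library. Of those 16, 14 rose. Over all 60 genes, with no filter, the mean level was higher in the knockdown for 50 and lower for 10, against 55.7% and 44.3% of all genes in the table. The knockdown libraries lay entirely above the controls for 28 of the 60 and entirely below for 0, against 24.3% and 21.7% of the table.

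**Figure D1:**
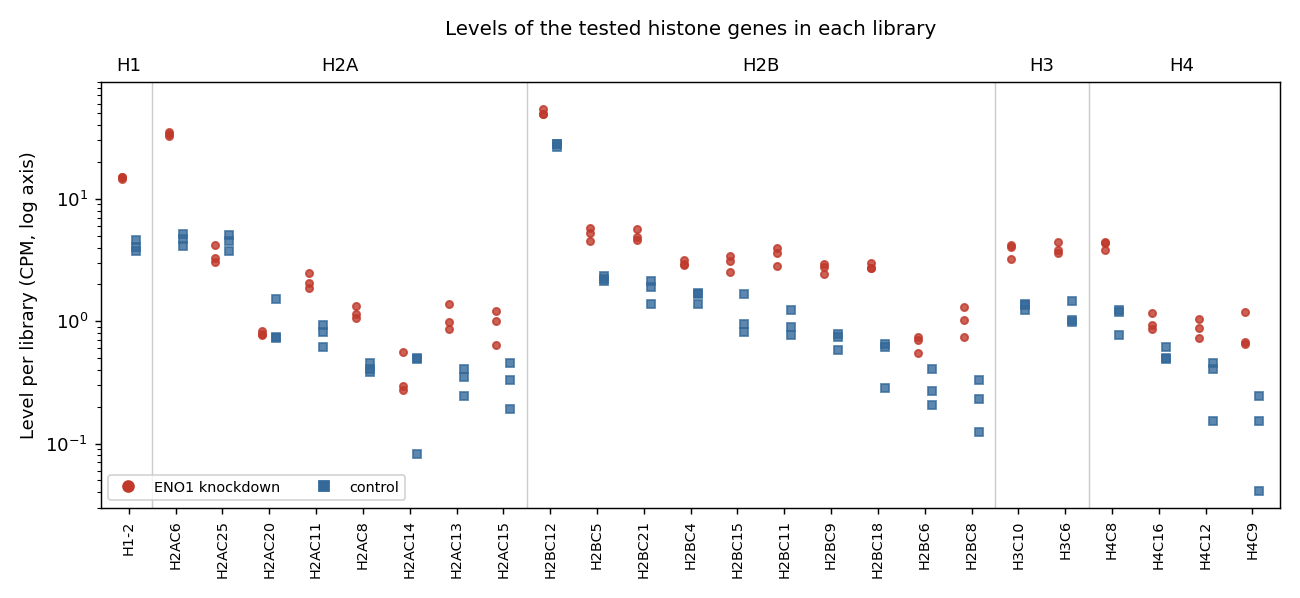
Level of each of the 25 tested histone genes in CPM on a log axis, with the 3 ENO1 knockdown libraries as circles and the 3 control libraries as squares, grouped by class. The knockdown points sit above the control points for 22 genes and overlap them for H2AC25, H2AC20 and H2AC14.

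Every class was higher in the knockdown. The sum of the 16 H2A genes was 44.8 ± 1.33 CPM in the knockdown and 12.7 ± 1.28 CPM in the controls, a ratio of 3.51. The 4 H1 genes summed to 15.5 ± 0.416 CPM in the knockdown and 4.47 ± 0.546 CPM in the controls, a ratio of 3.48. For the 12 H4 genes the sums were 8.68 ± 0.916 and 2.81 ± 0.434 CPM in the knockdown and the controls, a ratio of 3.09, and for the 11 H3 genes 9.44 ± 0.559 and 3.27 ± 0.550 CPM, a ratio of 2.89. The 17 H2B genes showed the smallest ratio of the 5 classes, 2.09, with 79.1 ± 2.74 CPM in the knockdown and 37.8 ± 0.828 CPM in the controls (SD, n = 3 each throughout). In none of the 5 classes did the groups overlap. The ratios of the classes to each other were not tested, because a sum over genes chosen with results known carries no p.

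**Figure D2:**
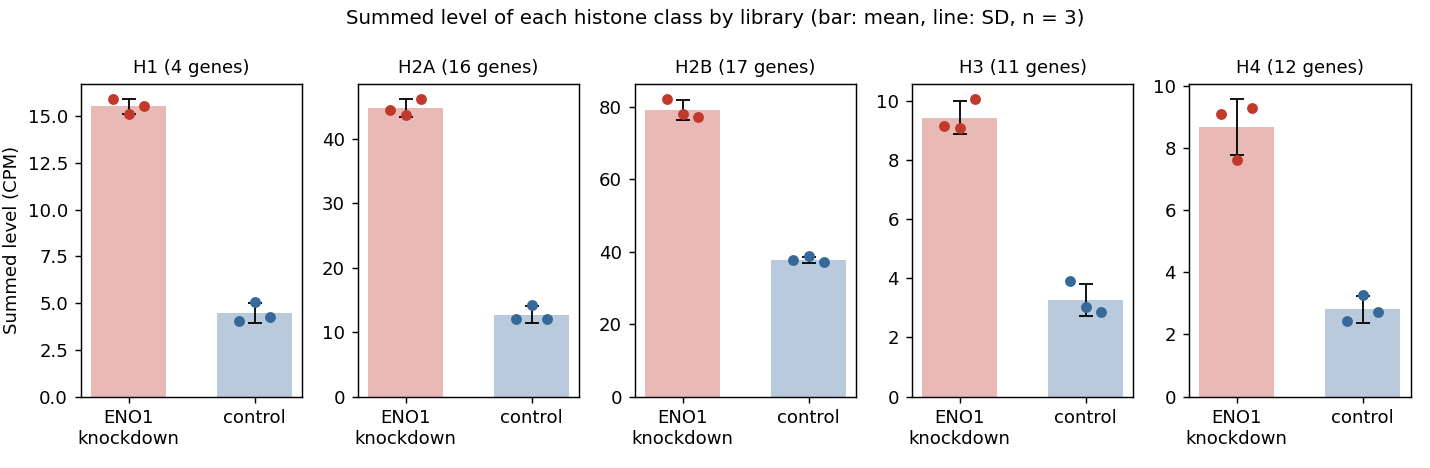
Summed level in CPM of the genes of each histone class, with bars for the mean, lines for the SD and points for the 3 ENO1 knockdown and 3 control libraries, on a separate axis starting at 0 for each class. The 3 knockdown points lie above the 3 control points in each class, with ratios of means from 2.09 in H2B to 3.51 in H2A.

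Behind these sums, a few genes carried most of the counts, and the classes differed in how far the rise was shared. H2BC12 alone took 33.5, 32.4 and 30.9% of the histone counts in the knockdown libraries, against 46.7, 43.8 and 45.3% in the controls. H2AC6 took 21.2, 21.4 and 22.4% in the knockdown libraries and 6.82, 7.33 and 8.70% in the controls. As a class, H2B made up 50.2 ± 1.29% of the histone counts in the knockdown and 61.9 ± 1.53% in the controls, and H2A 28.4 ± 0.802% and 20.8 ± 1.11% (SD, n = 3 each). Neither share overlapped between the groups. The shares of H3 and H4 did overlap. Without H2AC6, the other 15 H2A genes summed to 10.6 ± 0.324 CPM in the knockdown and 8.10 ± 1.34 CPM in the controls, a ratio of only 1.31. Much of that remainder was H2AC25, at 3.52 ± 0.585 CPM in the knockdown and 4.44 ± 0.637 CPM in the controls. H2AC6 aside, 4 of 7 tested H2A genes were called higher, against 29.4% of all tested genes. Among the 3 of them that met the filter level in every control library, 1 was higher. Without H2BC12, the other 16 H2B genes had a ratio of 2.78, with 28.3 ± 0.0997 CPM in the knockdown and 10.2 ± 0.523 CPM in the controls. The high H2A ratio thus rested on 1 gene, whereas the low H2B ratio was held down by 1 gene.

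**Figure D3:**
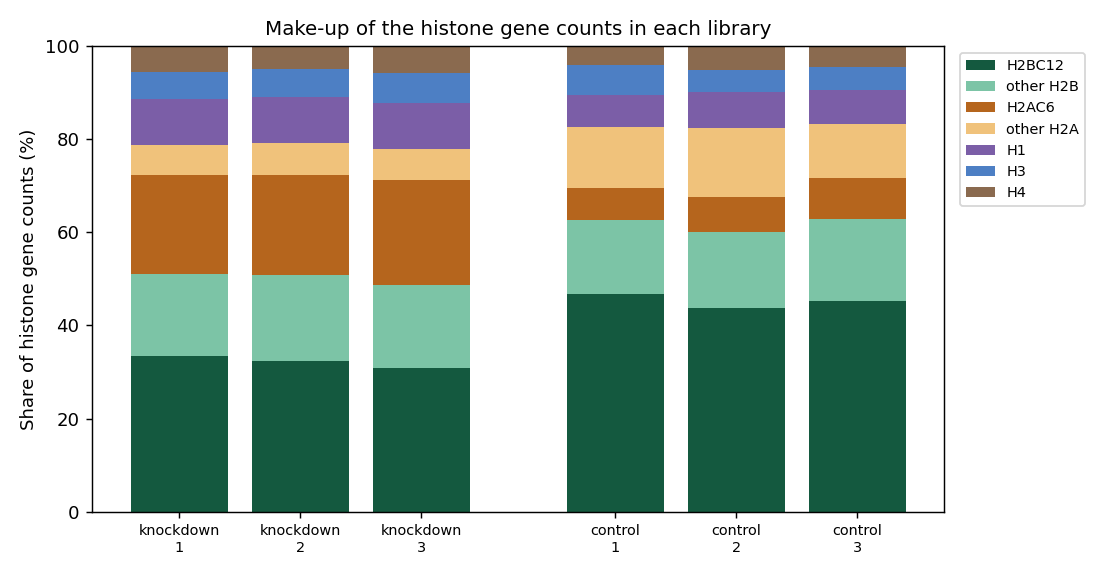
Share of the counts of all 60 histone genes, in percent, taken by H2BC12, the other H2B genes, H2AC6, the other H2A genes and classes H1, H3 and H4 in each ENO1 knockdown and control library. H2AC6 fills 21.2 to 22.4% of the bar in the knockdown libraries and 6.82 to 8.70% in the controls, while H2BC12 fills 30.9 to 33.5% and 43.8 to 46.7%.

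In class H2A, whose proteins pair with H2B in the nucleosome, 5 of 8 tested genes rose, 0 fell and 3 had no call. Of the 4 that met the filter level in every control library, 2 rose. H2AC6 (ENSG00000180573, GRCh38 chromosome 6, 26124145 to 26139116, plus strand) had 735, 724 and 721 counts in the knockdown libraries, against 106, 115 and 125 in the controls. This was 34.2 ± 1.30 CPM in the knockdown and 4.64 ± 0.524 CPM in the controls (SD, n = 3 each), a log2 fold change of 2.88 ± 0.091 (edgeR adjusted p = 3.29e-20; errors of fold changes are approximate SE). It was the highest fold change among the 25 tested histone genes. H2AC11 had 44, 55 and 38 counts in the knockdown libraries and 24, 20 and 15 in the controls, a log2 fold change of 1.43 (edgeR adjusted p = 6.81e-05). H2AC8, H2AC13 and H2AC15 also rose, by 1.49 to 1.66 on the log2 scale. H2AC13 shares 62.3% of its 50-base stretches with other genes, chiefly H2AC14, and exons of H2AC15 overlap those of H2BC15, so the counts of H2AC13, H2AC15 and H2BC15 are uncertain.

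The exceptions were also in H2A. H2AC25 (ENSG00000181218, GRCh38 chromosome 1, 228456979 to 228457873, minus strand), in the HIST3 cluster, had 66, 73 and 85 counts in the knockdown libraries, against 117, 123 and 92 in the controls. Scaled for depth the groups overlapped, at 3.07 to 4.18 CPM in the knockdown and 3.78 to 5.04 CPM in the controls, and the log2 fold change of -0.34 did not pass (edgeR adjusted p = 0.0827). It passed as lower when knockdown replicate 3 (edgeR adjusted p = 0.0257) or control replicate 3 (edgeR adjusted p = 0.0427) was left out. H2AC20 and H2AC14, named here after their values were seen, had log2 fold changes of -0.31 and 0.06 and edgeR adjusted p of 0.466 and 0.937. Both are uncertain, with 30.5% and 83.7% of their 50-base stretches shared with other genes, chiefly H2AC18 and H2AC13. H2AC20 held 17 counts in each knockdown library and 19, 37 and 18 in the controls, so its negative value came from control replicate 2, without which it was 0.12. In the controls H2AC25 held 7.26% of all histone counts on average, behind only H2BC12 and H2AC6, while in the knockdown it held 2.24%.

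All 10 tested H2B genes rose. Of these, 7 met the filter level in every control library, while H2BC6, H2BC8 and H2BC18 did not. H2BC12 (ENSG00000197903, GRCh38 chromosome 6, 27146418 to 27146798, minus strand) had 1158, 1094 and 995 counts in the knockdown libraries, against 726, 687 and 651 in the controls. Its level was 50.8 ± 2.64 CPM in the knockdown and 27.6 ± 0.795 CPM in the controls (SD, n = 3 each). The log2 fold change of 0.88 ± 0.057 (SE) was well past the threshold (edgeR adjusted p = 2.31e-13) and yet the lowest of its class. Of its 50-base stretches 74.1% occur in other genes' transcripts, so this value is uncertain. H2BC18 (ENSG00000203814, GRCh38 chromosome 1, 149782689 to 149812373, minus strand), in the HIST2 cluster, had the highest fold change of the class. It held 64, 60 and 55 counts in the knockdown libraries and 17, 7 and 15 in the controls, a log2 fold change of 2.41 ± 0.29 (SE, edgeR adjusted p = 4.43e-08). H2BC18 shares 25.7% of its stretches with other genes, and its exons overlap those of FCGR1A, so it is uncertain too.

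Between these lay H2BC5 and H2BC21, which are free of that doubt with 5.4% and 8.1% of stretches shared. H2BC5 was at 5.81, 5.26 and 4.52 CPM in the knockdown libraries, against 2.35, 2.21 and 2.13 CPM in the controls, a log2 fold change of 1.22 (edgeR adjusted p = 5.13e-07). H2BC21 (GRCh38 chromosome 1, 149884459 to 149886652, minus strand), the most counted gene of HIST2, was at 4.65, 4.86 and 5.66 CPM in the knockdown libraries and 1.89, 1.39 and 2.13 CPM in the controls, a log2 fold change of 1.48 (edgeR adjusted p = 1.02e-07). The groups stood well apart in both. H2BC8, H2BC9, H2BC11 and H2BC15 rose by 1.40 to 2.15 on the log2 scale, and H2BC15 is uncertain because its exons overlap those of H2AC15. The call of H2BC6, with 5 to 15 counts per library, was the weakest of the class (edgeR adjusted p = 0.0296) and was lost without knockdown replicate 1 or 3 or control replicate 1 or 3 (edgeR adjusted p 0.0815 to 0.111), with no filter (edgeR adjusted p = 0.0708) and with DESeq2 (adjusted p = 0.143).

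Class H1, the linker histones that bind DNA between nucleosomes, came down to a single gene. H1-2 (ENSG00000187837, GRCh38 chromosome 6, 26055787 to 26056428, minus strand) had 327, 320 and 308 counts in the knockdown libraries, against 97, 113 and 98 in the controls. Its level was 14.96 ± 0.377 CPM in the knockdown and 4.13 ± 0.456 CPM in the controls (SD, n = 3 each), and the log2 fold change was 1.86 ± 0.11 (SE, edgeR adjusted p = 4.31e-14). None of its 50-base stretches occurred elsewhere. H1-5 had 6, 5 and 8 counts in the knockdown libraries and 7, 4 and 3 in the controls. H1-4 had 5, 8 and 0 counts in the knockdown libraries and 1, 3 and 1 in the controls. These and H1-3 were too low to test, and their sum overlapped between the groups.

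Classes H3 and H4 form the central tetramer of the nucleosome. In H3, 2 of 11 genes could be tested and both rose. H3C6 (ENSG00000274750, GRCh38 chromosome 6, 26224199 to 26227473, plus strand) was at 3.58, 3.81 and 4.48 CPM in the knockdown libraries, against 1.47, 0.984 and 1.03 CPM in the controls, a log2 fold change of 1.76 (edgeR adjusted p = 8.95e-08). H3C10 was at 4.23, 3.22 and 4.03 CPM in the knockdown libraries and 1.35, 1.39 and 1.23 CPM in the controls, a log2 fold change of 1.52 (edgeR adjusted p = 4.55e-07). The groups did not overlap in either. The next gene of the class, H3C13, had 4, 17 and 9 counts in the knockdown libraries and 7, 3 and 5 in the controls, too few to test and uncertain, with 80.4% of its stretches shared.

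In H4, 4 of 12 genes could be tested and all 4 rose. Of these, 2 (H4C8 and H4C16) met the filter level in every control library, while H4C9 and H4C12 did not. H4C8 (ENSG00000158406, GRCh38 chromosome 6, 26277609 to 26285638, minus strand) had 95, 84 and 88 counts in the knockdown libraries, against 20, 30 and 29 in the controls, a log2 fold change of 1.98 ± 0.22 (SE, edgeR adjusted p = 1.19e-08). H4C9 had the highest fold change of the class, 2.46, on few counts, with 14, 15 and 24 in the knockdown libraries and 4, 6 and 1 in the controls (edgeR adjusted p = 0.000226). H4C12, whose stretches are all shared with other genes, chiefly H4C11, had 19, 16 and 21 counts in the knockdown libraries and 4, 11 and 10 in the controls. It rose by 1.37 on the log2 scale (edgeR adjusted p = 0.00705), and did not pass without control replicate 1 (edgeR adjusted p = 0.0595). H4C16, the solitary H4 gene on chromosome 12, had 25, 19 and 19 counts in the knockdown libraries and 13, 15 and 12 in the controls, the lowest fold change of the class at 0.87 (edgeR adjusted p = 0.0360). Its call was lost without any 1 of the same 4 libraries as for H2BC6 (edgeR adjusted p 0.0625 to 0.146), with no filter (edgeR adjusted p = 0.0709) and with DESeq2 (adjusted p = 0.156).

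**Figure D4:**
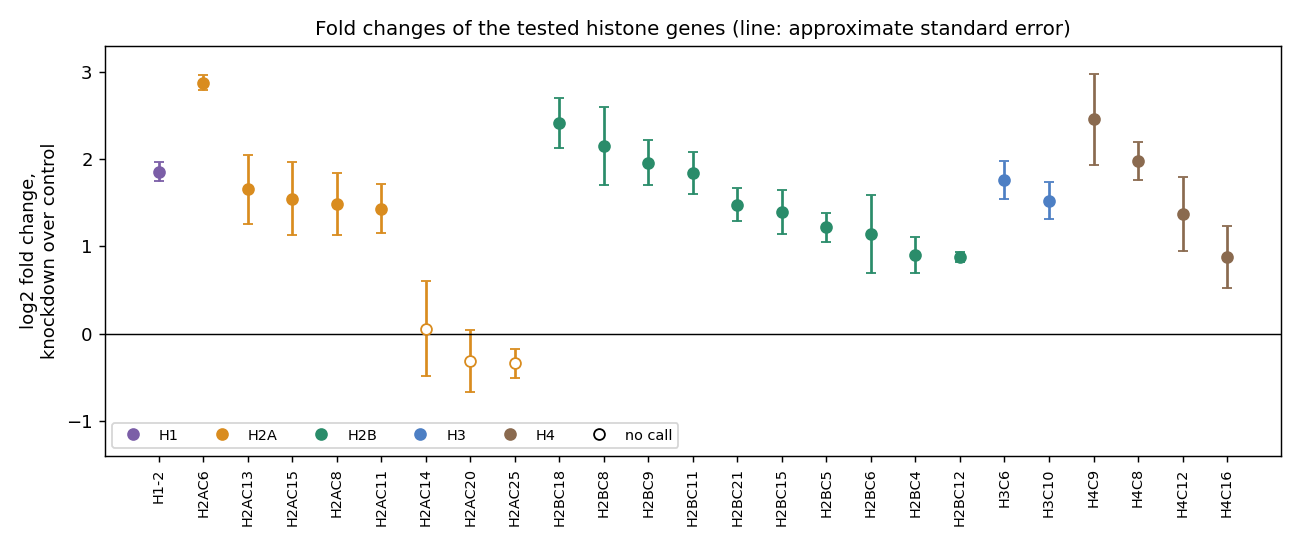
Log2 fold change of the 25 tested histone genes, ENO1 knockdown over control, with lines for the approximate standard error, coloured by class and ordered within it, and open points for genes with no call. Values run from -0.34 for H2AC25 to 2.88 for H2AC6, and the 3 open points are all H2A genes.

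The 35 genes that the filter removed together held 123, 146 and 115 counts in the knockdown libraries, against 75, 77 and 69 in the controls, which was 6.00 ± 0.543 and 2.96 ± 0.173 CPM (SD, n = 3 each) and a ratio of 2.03. The mean level was higher in the knockdown for 27 of these genes and lower for 8. For 6 of the 35 (17.1%) the knockdown libraries lay entirely above the controls, fewer than the 24.3% of the table, and for 0 entirely below, against 21.7%. H4C4, named after its values were seen, was at 0 in all 3 controls and had 9, 15 and 10 counts in the knockdown libraries, at least 13.3-fold higher when the controls are set at 3 counts over the group. Conversely H4C1 was at 0 in the knockdown and had 0, 6 and 1 counts in the controls. H2AC18 and H2AC19, near-identical copies, had at most 3 counts in a library, and H4C15, nearly identical to H4C14, ranged from 0 to 22 within the knockdown group. How the authors' counting treated reads that match several genes is not given in the sources used here.

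By cluster, HIST1 held most of the rise. Its 47 genes summed to 142.8 ± 3.51 CPM in the knockdown and 52.1 ± 2.65 CPM in the controls, a ratio of 2.74, and 19 of its 20 tested genes rose. The 9 genes of HIST2 summed to 9.80 ± 0.525 CPM in the knockdown and 3.93 ± 0.387 CPM in the controls, a ratio of 2.49, with 2 of 3 tested genes higher. Over all tested genes 29.4% were called higher. In HIST1, 12 tested genes met the filter level in every control library, and all 12 rose. In HIST2, H2BC21 and H2AC20 met it, and of these only H2BC21 rose. The other HIST2 gene called, H2BC18, did not meet it, and its counts are uncertain. HIST3 was the exception, at 3.88 ± 0.615 CPM in the knockdown and 4.54 ± 0.593 CPM in the controls (SD, n = 3 each), with overlapping groups. It holds only H2AC25 and H2BC26, and H2BC26 had 5, 11 and 7 counts in the knockdown libraries and 1, 2 and 4 in the controls, too few to test. Within HIST1, the 26 genes of the proximal group, on the side of H1-2 and H2AC6, had a ratio of 4.19, with 73.7 ± 1.80 CPM in the knockdown and 17.6 ± 0.760 CPM in the controls. The 21 genes of the distal group, which holds H2BC12, had a ratio of 2.00, with 69.1 ± 2.71 CPM in the knockdown and 34.5 ± 2.04 CPM in the controls. That contrast came from 3 genes. Without H2AC6 and H1-2 the proximal ratio was 2.80, and without H2BC12 the distal ratio was 2.67.

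Many H2A and H2B genes sit head to head and share the DNA between their starts. Such pairs, with starts 193 to 247 bases apart, numbered 11 among the 60 genes. Both partners could be tested in 5 pairs, and both rose in 4 of these. In the other 6 pairs at least 1 partner had too few counts to test. In the pair of H2AC6 and H2BC4 both rose but by different amounts. H2BC4 had 63, 63 and 64 counts in the knockdown libraries, against 44, 34 and 41 in the controls, a log2 fold change of 0.90 ± 0.21 (SE, edgeR adjusted p = 0.000536). The ratio of H2AC6 to H2BC4 counts was 11.7, 11.5 and 11.3 in the knockdown libraries and 2.41, 3.38 and 3.05 in the controls. The groups did not overlap (two-sided exact permutation p = 0.1, n = 3 each, the smallest p that 3 against 3 allows). This test was not planned, and H2AC6 has the highest fold change among the 25 tested histone genes, so its p adds no support. The ratio of H2AC6 to H2BC12 counts, tested in the same way, gave the same p. In the fifth pair with both tested, H2BC21 rose while H2AC20 had no call, on counts that are uncertain for H2AC20. H2AC12, the partner of H2BC12, had 0 to 4 counts in any library. In H2AC8 with H2BC8, H2AC11 with H2BC11 and H2AC15 with H2BC15, the partners had log2 fold changes of 1.49 and 2.15, 1.43 and 1.84, and 1.55 and 1.40. Exons of H2AC15 and H2BC15 overlap, so the counts of that pair are uncertain. H2AC8, H2BC8 and H2AC15 did not meet the filter level in every control library.

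The promoters of 3 genes are shown because their genes mark the extremes of the response, H2AC6 with the highest fold change, H2BC12 with the most counts and H2AC25 with the lowest fold change. Each runs from 250 bases before to 50 after the start (RefSeq, GRCh38.p14), and capitals mark ATTTGCAT (the octamer, bound by POU-domain factors), CCAAT (the motif of NF-Y) and TATAAA (a core promoter element bound by TFIID), read on both strands.
H2AC6 promoter, chr6:26123922-26124221, plus strand: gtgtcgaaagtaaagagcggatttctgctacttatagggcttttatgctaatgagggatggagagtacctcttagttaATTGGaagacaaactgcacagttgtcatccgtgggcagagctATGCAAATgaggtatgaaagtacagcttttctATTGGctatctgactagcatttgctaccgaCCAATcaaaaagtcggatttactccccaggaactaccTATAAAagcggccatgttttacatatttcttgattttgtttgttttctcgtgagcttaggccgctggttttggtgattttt
H2BC12 promoter, chr6:27146809-27147108, minus strand: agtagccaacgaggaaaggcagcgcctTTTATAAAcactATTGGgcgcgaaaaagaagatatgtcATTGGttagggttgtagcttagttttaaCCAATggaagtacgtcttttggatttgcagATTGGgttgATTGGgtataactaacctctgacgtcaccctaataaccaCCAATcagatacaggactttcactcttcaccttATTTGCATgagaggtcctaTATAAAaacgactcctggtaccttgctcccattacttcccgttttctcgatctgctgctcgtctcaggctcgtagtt
H2AC25 promoter, chr1:228457824-228458123, minus strand: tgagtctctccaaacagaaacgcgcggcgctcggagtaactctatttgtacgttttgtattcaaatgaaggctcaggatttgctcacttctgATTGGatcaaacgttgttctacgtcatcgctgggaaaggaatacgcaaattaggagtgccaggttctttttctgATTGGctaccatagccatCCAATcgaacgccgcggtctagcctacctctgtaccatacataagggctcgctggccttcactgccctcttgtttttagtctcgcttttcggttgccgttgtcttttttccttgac
H2AC6 and H2BC12 hold all 3 motifs, and H2AC25 holds CCAAT only. The H2AC6 stretch is also that between H2AC6 and H2BC4, and its octamer lies at -130 relative to the start of H2AC6. RefSeq promoters were found for 54 of the 60 genes, including all 22 that rose. The octamer was present in 10 of 15 H2A and 12 of 16 H2B promoters, in 1 of 9 H3 promoters and in 0 of 4 H1 and 0 of 10 H4 promoters, against 1.80% of 27305 promoters. The 1 H3 promoter with it, that of H3C4, is the same stretch as the promoter of H2AC7, so it was counted in both classes. CCAAT was present in all H1, H2A, H2B and H3 promoters but in 2 of 10 H4 promoters, against 35.7% of all. TATAAA was found in 2 of 4 H1, 11 of 15 H2A, 10 of 16 H2B, 6 of 9 H3 and 5 of 10 H4 promoters, against 12% of all. Paired genes share part of this DNA and are not independent. The octamer was present in the promoters of 11 of the 22 genes that rose and of 2 of the 3 tested genes without a call, H2AC14 and H2AC20. The 11 with it were all of classes H2A and H2B, and the others were H2BC5, H2BC15, H2AC13, H2AC15 and the H1, H3 and H4 genes that rose.

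The genes were then set beside their annotated transcript forms. The 20 genes with a transcript model that runs at least 100 bases past the stem-loop summed to 69.6 ± 3.49 CPM in the knockdown and 19.97 ± 0.686 CPM in the controls, a ratio of 3.48. The other 40, which include those whose models stop short of the stem-loop, had a ratio of 2.14, with 88.0 ± 3.46 CPM in the knockdown and 41.1 ± 2.25 CPM in the controls. They also include H3C6 and H2BC11, whose models run 1908 and 569 bases past the coding end but hold no match to the pattern. The split therefore does not cleanly part long from short models. The 13 genes with a spliced transcript model, which replication-dependent histone messages lack in their usual form, had a ratio of 4.27, with 62.0 ± 2.13 CPM in the knockdown and 14.5 ± 0.558 CPM in the controls. Those with no spliced model had a ratio of 2.05, with 95.5 ± 1.88 CPM in the knockdown and 46.5 ± 2.70 CPM in the controls (SD, n = 3 each). These differences rested on 2 genes, H2AC6 in the first set of both splits and H2BC12 in the second. Without these, a choice made after seeing the data, the order of the first split turned round, with a ratio of 2.31 for genes with a model past the stem-loop (35.4 ± 2.21 CPM in the knockdown and 15.3 ± 0.712 CPM in the controls) and 2.76 for the others (37.2 ± 0.934 and 13.5 ± 1.68 CPM). The ratios of the second split came to 2.82 with a spliced model and 2.36 without one. Median log2 fold changes of the tested genes were close in both splits, at 1.502 with a model past the stem-loop and 1.489 for the others, and at 1.58 with a spliced model and 1.49 without one. The groupings follow the annotation and not the reads, and no reads of the 2 forms were counted apart. H2BC12 was placed by its GENCODE 29 model, which covers 0.381 kb and ends at the stop codon. Its RefSeq span is 8.566 kb, so its place in both splits is uncertain. Levels were not ranked between genes, since the annotation the authors counted with is not given and gene models differ widely, with H2AC6 exons covering 1.668 kb in GENCODE 29 against a RefSeq span of 0.519 kb.

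Of 10 tested genes listed as replication-independent histone variants 6 fell, 1 rose and 3 had no call. Over all tested genes 30.5% were lower and 29.4% higher. The median over the 10 was -0.26 on the log2 scale. The summed level of the list was nonetheless higher in the knockdown, at 2112 to 2114 CPM, against 1949 to 2001 CPM in the controls, with MACROH2A1 as the 1 gene that rose. H2AZ1 and H2AZ2, which encode the H2A.Z variant found at promoters, had log2 fold changes of -0.55 and -0.45. H2AZ1 was at 288.6 ± 4.84 CPM in the knockdown and 423.8 ± 11.7 CPM in the controls (SD, n = 3 each; edgeR adjusted p = 6.24e-15). MACROH2A1, a variant with a large extra domain known for repressed chromatin, rose by 0.93 on the log2 scale, to 975.4 ± 3.96 CPM in the knockdown, against 512.0 ± 7.60 CPM in the controls (SD, n = 3 each; edgeR adjusted p = 3.90e-21).

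Of 20 factors that make and trim histone messages 7 fell and 6 rose, shares near the 30.5% and 29.4% over all tested genes, and the median was -0.0003. SLBP, which binds the stem-loop, was at 131.6 ± 0.897 CPM in the knockdown and 171.0 ± 0.829 CPM in the controls (SD, n = 3 each), a log2 fold change of -0.38 (edgeR adjusted p = 1.52e-10). CPSF2, a subunit of the cleavage complex, fell by 0.55 on the log2 scale (edgeR adjusted p = 2.27e-12). TUT7, which adds uridines to histone messages as they decay, rose by 0.53 (edgeR adjusted p = 2.04e-09). Named after their values were seen, LSM11 of the U7 particle and the exonuclease ERI1 were lower, with log2 fold changes of -0.93 and -0.46, and NPAT, the activator of histone genes in S phase, was higher at 0.28. Of 20 histone chaperones and deposition factors 11 fell and 1 rose, with a median of -0.22, and the lowest p belonged to NAP1L4 at -1.26, SSRP1 of the FACT complex at -0.62 and MCM2 at -0.59. Of 20 genes of DNA synthesis 19 fell and 1 rose, with a median of -0.51, among them MCM4 at -0.70, MCM7 at -0.63 and the uracil glycosylase UNG at -0.86. Histone genes rose in the same libraries in which most genes of DNA synthesis fell. The part of cell-cycle position in these values was not tested.

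**Figure D5:**
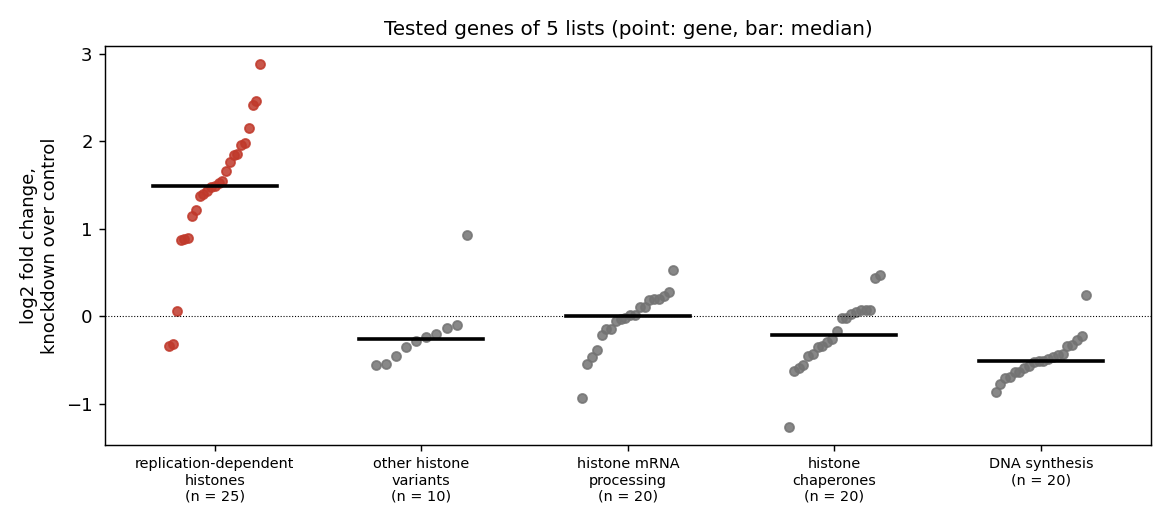
Log2 fold change, ENO1 knockdown over control, of the tested genes of 5 lists, with a point for each gene and a bar at the median. The replication-dependent histones have a median of 1.49, and the other 4 lists have medians from -0.51 for DNA synthesis to -0.0003 for histone message processing.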

How the data were processed

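RNA was sequenced from 3 ENO1 knockdown and 3 control libraries, grouped by title. HISAT2 2.0.5 and hg38 are named in the submitters' processing notes; counter, annotation and strandedness are not known here. The authors deposited raw whole-number counts per Ensembl gene, 1 column per library, per the file headers. Counts were tested with edgeR 4.0.16 (R 4.3.3): TMM, filterByExpr, robust quasi-likelihood fit, two-sided, Benjamini-Hochberg over 14635 of 23227 genes, threshold 0.05. Approximate standard errors of fold changes were derived from F (size of the change over root F). CPM are on TMM-scaled sizes. At these depths the filter level was 0.431 CPM. Symbols, RefSeq positions and promoters are of GRCh38.p14; transcripts are of GENCODE 29, in which 56 of the 60 genes matched by ID and 4 by an older symbol. Genes with over 10% of 50-base stretches in other genes' transcripts (19 of 60) are given as uncertain where described singly. The fit was tested on simulated data. Alternatives used DESeq2 1.42.0, limma-voom (limma 3.58.1) and other settings given at the end; the exact permutation test used scipy 1.17.1. Values were given per library for the 3 genes of each class with the highest mean CPM and those with its highest and lowest fold change; from each other list, the 3 genes with the lowest adjusted p were named. Same-numbered libraries did not deviate together (r of 0.00289, 0.00917 and -0.0225), so no pairing was used. The genes and lists were chosen with earlier results of these data known.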

Additional observations from a re-analysis of the deposited data

How the results depend on the processing

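Against 22 with all libraries, between 21 and 23 histone genes were called higher when any 1 library was left out, but not always the same genes. Without control replicate 1, H2BC6, H4C16 and H4C12 all lost the call, so other genes entered the number. The count of lower calls went from 0 to 1 (H2AC25, also in class H2A). With the replicate number as a block, 21 genes were called higher, H4C16 being lost (adjusted p = 0.0520), and no other call changed. Without both libraries that stood apart, knockdown replicate 3 and control replicate 2, 22 were called, but not the same 22, since H4C16 was lost (edgeR adjusted p = 0.0554). Under the alternatives 18.5 to 35.9% of all genes tested were called higher and 20.5 to 35.1% lower. At 0.05, 19 of the 22 calls were kept in every alternative that tested them, the others being H2BC6, H4C16 and H4C12. RLE and plain library-size scaling kept the direction of all class sums. Few genes pass stricter limits: at 5 CPM in 3 libraries only H2BC12, H2AC6 and H1-2 were tested. This gave 3 calls in all and in HIST1, 1 in H2A and 1 in H2B. Medians were 1.89 for all genes and for HIST1, 2.92 for H2A and 0.92 for H2B. H2AC6 and H1-2 passed this limit only through the knockdown libraries, which favours a rise. In the controls H2AC6 was at 4.09 to 5.13 CPM and H1-2 at 3.74 to 4.63 CPM. Counting only genes that met the filter level in all controls, a choice made after seeing the data, gave 14 calls in all, 12 in HIST1, 7 in H2B, 2 in H2A, 2 in H4 and 1 in HIST2, with medians of 0.56 for H2A and 0.58 for HIST2. Among genes with at most 10% of stretches shared, HIST2 had 1 call. With no filter the medians were 1.19 over all 60, 1.06 for H1, 0.57 for H2A, 1.18 for H3, 1.26 for H4, 1.27 for HIST1 and 0.75 for HIST2. With DESeq2 they were 1.11 for H1, 1.04 for H2A, 1.30 for H2B, 1.32 for H4, 1.39 for HIST1 and 1.00 for HIST2. Both settings test more genes of few counts. With 1 library left out, medians ran from 1.35 to 1.61 for H2B, 1.48 to 1.96 for H3 and 1.78 to 2.09 for H4. Log2 ratios of summed levels, also chosen after seeing the data, were 1.67 for all genes and 1.48 for H2B without H2BC12, and 1.74 and 1.43 over genes with at most 10% shared. Over the genes the filter removed they were 1.02 for all, 0.78 for H1, 0.48 for H2A, 1.08 for H3 and 1.31 for H4. Genes without a call turned sign: H2AC20 ran from -0.50 to 0.12 with 1 library left out (0.12 without control replicate 2, and 0.085 without that library and knockdown replicate 3), and H2AC14 from -0.40 to 0.38 (-0.34 without knockdown replicate 1, -0.40 without control replicate 3). The cause was not tested. Few reads per gene limit what can be shown for 35 of the 60 genes.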

Other observations

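Genes of other kinds lie between the histone genes of HIST1 on chromosome 6, among them butyrophilins, which are surface proteins of the immunoglobulin family, and zinc finger genes. Between the outermost members, 13 such genes were tested, of which 3 were higher and 4 lower in the knockdown, with a median log2 fold change of 0.01 (edgeR adjusted p below 0.05). These shares are near those over all tested genes, 29.4% higher and 30.5% lower. BTN2A2 averaged 5.65 CPM in the knockdown and 13.1 CPM in the controls, a log2 fold change of -1.21 (edgeR adjusted p = 3.81e-10). ZNF322 and ZNF184 had log2 fold changes of 0.49 and 0.32, and HCG11 of -0.30. These genes were picked by position after the histone values were seen.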
